A study of Mus musculus with 79 samples.

Results

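Dorsal and ventral striatum were compared in neurons that express the dopamine D2 receptor, using the 30 of 79 libraries that the labels give to the D2 receptor-expressing neuron: 16 of dorsal striatum and 14 of ventral striatum. All mice, of the C57BL/6J strain, were heterozygous for a bacterial artificial chromosome transgene, eGFP fused to the ribosomal protein L10a behind the Drd2 promoter (D2 groups) or the D1a receptor promoter (the D1 groups used for contrast, 15 libraries of each region). Ribosomes of the tagged cells were pulled down with an antibody to GFP, a method known as bacTRAP, so each library is ribosome-bound mRNA. Each came from punches pooled over 3 mice of both sexes, the ventral punches being of nucleus accumbens, and ages are not given in the labels. The labels do not say whether dorsal and ventral pools shared mice, so p-values measure the spread between these libraries.

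Medium spiny neurons of the striatum form 2 classes, marked by the D1 or the D2 receptor. D2 receptors couple to inhibitory G proteins and lower cAMP, while the adenosine receptor of the same cells, encoded by Adora2a, raises it. Dorsal striatum receives mainly sensorimotor and associative cortical input and dopamine from the substantia nigra, and nucleus accumbens receives limbic input and dopamine from the ventral tegmental area. The Drd2 promoter is also active in the cholinergic interneurons of the striatum, so the tagged cells are not medium spiny neurons alone. In such bulk samples fewer cells of a type and less RNA per cell cannot be told apart.

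The labelled cell type was checked against Drd2, the receptor gene itself. Drd2 lay between 828 and 1596 CPM in dorsal libraries (median 1146) and between 337 and 1184 CPM in ventral libraries (median 625). It was present at high level in every library and higher in dorsal striatum (log2 difference 0.87, SE 0.15, adjusted p = 1.90e-05), with 7 of 16 dorsal libraries above every ventral one. Drd1a, the D1 receptor gene, lay between 6.86 and 40.6 CPM in dorsal libraries (median 12.1) and between 8.23 and 29.1 CPM in ventral libraries (median 15.1), with no difference called (-0.19, SE 0.21, adjusted p = 0.537).

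Library names begin with EM (8 dorsal, 8 ventral), OdP (8 dorsal, 5 ventral) or BdP (1 ventral), codes whose meaning the labels do not give. Reads in genes ran from 7350200 to 30834630 per library, with medians of 15319593 (EM dorsal), 24192280 (OdP dorsal), 17613690 (EM ventral) and 26589364 (OdP ventral). On the second principal component the OdP dorsal libraries scored between -37.3 and -26.0 and the EM dorsal libraries between -8.69 and 11.4, without overlap. The EM ventral libraries scored between 24.8 and 42.8 and the OdP ventral libraries between -15.1 and 1.44, so both region and name code shifted this component. Dorsal replicates 2 and 6 and ventral replicate 6, all EM, stood apart on the third component, at 44.8, 61.9 and 38.4, and the next highest was ventral replicate 7 at 21.4. With region as a covariate, 5112 of 11243 genes (45.5%) differed in level between EM and OdP, 279 of them at least 2-fold.

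**Figure D1:**
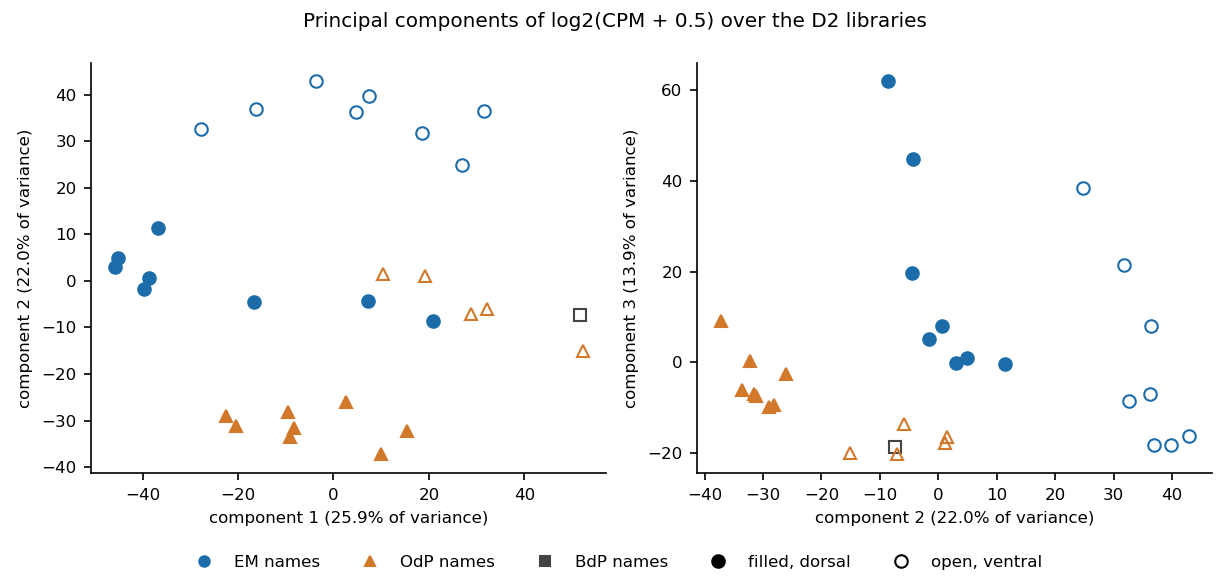
Scores of the 30 D2 libraries on the first 3 principal components of log2(CPM + 0.5), with the share of variance on each axis; colour and shape give the name code, filled points are dorsal and open points ventral. Within each name code the dorsal and ventral libraries lie apart on component 2, and OdP libraries lie below EM libraries of the same region.

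The dorsal minus ventral difference was then compared between the codes, which share no library. Fitted alone, the EM libraries called 2238 of 11288 genes (19.8%) and the OdP libraries 2074 of 11183 (18.5%), where called means a Benjamini-Hochberg adjusted p under 0.05 in limma on log2(CPM + 0.5). Of 10976 genes tested in both, 1223 (11.1%) were called in both, 1223 with the same sign and 0 with opposite signs. They made up 56.6% of the EM calls and 59.95% of the OdP calls. Over all genes tested in both, 75.1% had the same sign, beside 95.7% of the EM calls and 97.4% of the OdP calls, and the median difference of all genes was below 0 in both codes (-0.14 in EM and -0.07 in OdP). Of the EM calls of at least 2-fold, 474 of 476 had the same sign in OdP and 408 were also called there. Of the OdP calls of that size, 432 of 434 had the same sign in EM. The interaction of region with name code called 0 of 12028 genes (0%) in limma, with 629 genes at an unadjusted p under 0.05, and 0 in edgeR on the recovered reads, with 593 such genes. The smallest adjusted p was 0.446. An interaction that misses the threshold does not show that the differences are equal: among the 24 genes with the largest differences, described below, EM minus OdP ran from -0.73 (Sgpp2) to 0.95 (Ttr) on the log2 scale.

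**Figure D2:**
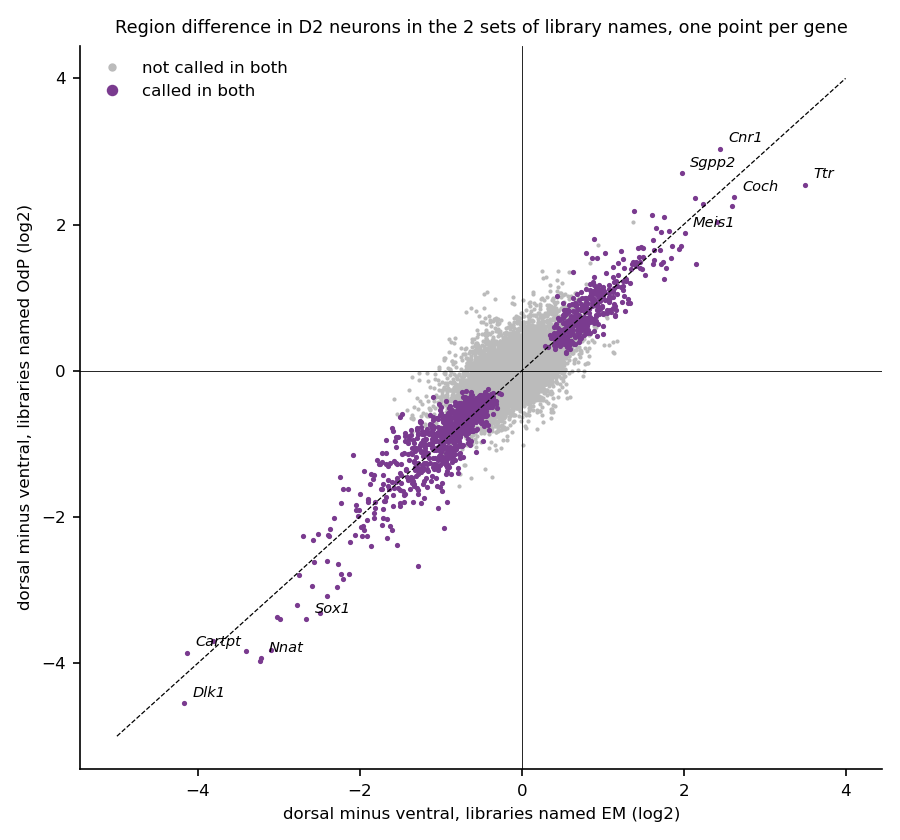
Dorsal minus ventral log2 difference in D2 neurons for each gene tested in all fits, in EM libraries (x axis) and in OdP libraries (y axis); purple genes had an adjusted p under 0.05 in both and the dashed line marks equal values. Dlk1 and Cartpt lie at the lower left end and Cnr1 and Ttr at the upper right, and no purple point lies in a quadrant of opposite signs.

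Over all 30 libraries, 3189 of 11187 genes (28.5%) passed the test, 887 (7.93%) with the higher level in dorsal striatum and 2302 (20.6%) with the lower. At least 2-fold differences numbered 124 higher (1.11%) and 340 lower (3.04%), and 421 of those 464 genes (90.7%) were called with the same sign in both codes. The median difference of all genes was -0.12 on the log2 scale. With median-ratio scaling, which moved that median to 0.00, the calls split into 1398 higher (12.5%) and 1336 lower (11.9%). The split was 1437 and 1509 with quantile normalization, 1357 and 1325 in edgeR and 991 and 1995 with values scaled to the reads in genes. Genes named below as higher or lower kept their direction under each of these scalings, although Adra2c, Cdr1, Clic6, Htr5a, Napepld, Npy, Oprk1 and Zeb2 missed the threshold with median-ratio scaling and, with Eya1, in edgeR. Of Slc17a6 and Lhx2, at least 1 also missed it in each of these fits. Their list of thalamic and glutamatergic markers held 2 lower genes over all libraries, 1 with median-ratio scaling and 1 in edgeR. Ankk1, Chrna4, Chrnb2, Clic6, Kcnip3, Napepld, Sp9, Vgf and Cdr1 passed only with all libraries, not in EM or OdP alone. Adora2a, Adra2c, Adrb1, Chat, Dhrs3, Eya1, Grin2b, Igf2r, Kcnip2, Mbp, Oprk1, Pdyn, Ppp1r1b, Prkcd and Scn8a passed in OdP but not in EM, and Cacng5, Grin2d, Htr5a, Isl1, Nts, Oprl1, Rgs20, Sst and Zeb2 in EM but not in OdP. Slc17a6 and Lhx2 passed in EM and neither passed in OdP, where 2 of the 3 markers tested from their list were tested. Chrna7 passed in OdP and Htr1a in EM, each not tested in the other code, and Htr7 and Npy, each tested in 1 code, did not pass in it. Counts for a gene list cover the members that passed the filter of 1 CPM in at least 14 libraries, not all members, and are to be read beside the 7.93% higher and 20.6% lower of all genes. Dorsal libraries lay wholly above ventral ones for 55 genes (0.492%) and wholly below for 108 (0.965%).

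Among the genes with the largest differences toward ventral striatum were Dlk1, Cartpt, Dgkk, Nnat, Trhr and Kcnip1, an order that depends on the pseudocount for genes near 0. Dlk1, a membrane-bound Notch ligand relative encoded by an imprinted locus (chromosome 12, 109452485 to 109463336, RefSeq GRCm38.p6), lay between 0 and 1.4 CPM in dorsal libraries (median 0.32) and between 11.1 and 27.98 CPM in ventral libraries (median 17.2). The groups did not overlap (log2 difference -4.38, SE 0.16, adjusted p = 3.18e-21), and the difference was -4.17 in EM and -4.55 in OdP libraries. Cartpt, the precursor of the CART peptides of the accumbens (chromosome 13, 99898483 to 99910179), lay between 0.0144 and 2.36 CPM in dorsal libraries (median 0.464) and between 7.59 and 32.2 CPM in ventral libraries (median 15.6). Again every dorsal library was below every ventral one (log2 difference -4.07, SE 0.25, adjusted p = 5.07e-15). Cartpt levels were higher in EM than in OdP in both regions, with medians of 0.864 and 0.138 CPM in dorsal and 26.3 and 9.21 CPM in ventral libraries, but the region difference was -4.13 in EM and -3.86 in OdP.

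Regulatory sequence is shown for Cartpt and for 2 genes of D2 identity, because cAMP-responsive transcription is a textbook route from dopamine and adenosine receptors to peptide genes. The sequences are from RefSeq (GRCm38.p6), 5′ to 3′ on the gene's own strand. Those of Gpr6 and Drd2 end just before the first base of the gene's span, and only 30 bases are given for Cartpt, where GENCODE annotates an exon of a longer transcript. Capitals mark the palindromic cAMP response element TGACGTCA, the one motif searched, on both strands.
Cartpt, chr13:99900777-99900806, minus strand: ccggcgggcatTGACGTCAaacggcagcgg
Gpr6, chr10:41072291-41072540, minus strand: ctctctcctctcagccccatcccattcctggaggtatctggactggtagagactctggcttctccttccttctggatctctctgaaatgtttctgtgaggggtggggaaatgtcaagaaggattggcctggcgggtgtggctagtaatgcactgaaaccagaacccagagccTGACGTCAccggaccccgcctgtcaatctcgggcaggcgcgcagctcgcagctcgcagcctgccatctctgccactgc
Drd2, chr9:49340153-49340359, plus strand: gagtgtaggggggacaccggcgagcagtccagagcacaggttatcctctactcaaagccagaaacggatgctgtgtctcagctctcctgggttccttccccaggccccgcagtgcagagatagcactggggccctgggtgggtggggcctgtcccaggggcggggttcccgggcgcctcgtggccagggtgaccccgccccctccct
The element lay 105 to 112 bases before the start used in the RefSeq promoter table in Cartpt and 71 to 78 in Gpr6, and these letters were not in the Drd2 sequence. Among all 27025 genes with an entry, 478 (1.77%) held it in the 250 bases before a start. Of the 24 genes with the largest differences, 21 had an entry and 1 held it, and of the 7 D2 identity genes tested 5 had an entry and 1, Gpr6, held it. A match describes the letters and is not evidence that a factor binds there.

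Dgkk, a diacylglycerol kinase that removes a lipid second messenger (chromosome X, 6779306 to 6948363), lay between 0.0303 and 4 CPM in dorsal libraries (median 1.22) and between 13.8 and 75.5 CPM in ventral libraries (median 21.6). Nnat, an imprinted proteolipid gene of the endoplasmic reticulum (chromosome 2, 157560078 to 157562525), lay between 1.58 and 32.8 CPM in dorsal libraries (median 8.71) and between 46.5 and 217 CPM in ventral libraries (median 129). Trhr, the receptor for thyrotropin-releasing hormone (chromosome 15, 44195924 to 44235912), lay between 0.0517 and 1.01 CPM in dorsal libraries (median 0.163) and between 3.03 and 13.6 CPM in ventral libraries (median 9.31). None of the 3 overlapped between regions, with differences of -3.80, SE 0.25, adjusted p = 2.44e-14 for Dgkk, -3.69, SE 0.30, adjusted p = 3.36e-12 for Nnat and -3.58, SE 0.19, adjusted p = 6.97e-17 for Trhr. Kcnip1, a calcium-binding subunit of A-type potassium channels (chromosome 11, 33629339 to 33993348), lay between 0.751 and 3.7 CPM in dorsal libraries (median 1.62) and between 15.8 and 40.4 CPM in ventral libraries (median 24.5), again without overlap (log2 difference -3.57, SE 0.17, adjusted p = 2.43e-18). Nnat sits within Blcap, whose own difference was not called (-0.37, SE 0.16, adjusted p = 0.0714); reads of overlapping genes may be shared in the counts.

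The 12 largest ventral differences were taken among genes called over all libraries, in EM and in OdP that averaged 5 CPM or more in ventral striatum. The other 6 of these 12 also separated the regions completely. Sox1, a transcription factor of neural progenitors that persists in some striatal neurons, lay between 1.68 and 9.06 CPM in dorsal libraries (median 3.26) and between 17.9 and 48.5 CPM in ventral libraries (median 28.8). Pde1a, a calmodulin-dependent phosphodiesterase that degrades cyclic nucleotides, lay between 5.3 and 23.02 CPM in dorsal libraries (median 10.8) and between 45.3 and 124 CPM in ventral libraries (median 75.4). Their differences were -2.99 (SE 0.16) and -2.77 (SE 0.15). Fgf10, a secreted growth factor, had medians 0.14 against 6.23 CPM and a difference of -3.22, SE 0.17, adjusted p = 9.04e-17. AW551984, known by its cDNA name, had medians 0.166 against 7.75 CPM (-3.47), Zbtb7c, a zinc finger gene, medians 0.207 against 5.98 CPM (-3.19), and Tcerg1l medians 0.695 against 9.16 CPM (-2.99).

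Higher in dorsal striatum, Cnr1, the CB1 cannabinoid receptor gene (chromosome 4, 33923171 to 33948831), had the largest difference without overlap among the genes named here. It lay between 73.9 and 163 CPM in dorsal libraries (median 122) and between 7.64 and 29.8 CPM in ventral libraries (median 17.7), so that every dorsal library stood above every ventral one (log2 difference 2.74, SE 0.15, adjusted p = 2.26e-16; EM 2.45, OdP 3.04). Coch, which encodes the extracellular matrix protein cochlin (chromosome 12, 51593283 to 51606619), lay between 22.04 and 46.2 CPM in dorsal libraries (median 32.9) and between 2.15 and 12.5 CPM in ventral libraries (median 5.7), also without overlap (log2 difference 2.52, SE 0.16, adjusted p = 5.07e-15). Meis1, a homeobox transcription factor (chromosome 11, 18880428 to 19019651), lay between 7.1 and 17.4 CPM in dorsal libraries (median 12.7) and between 0.962 and 4.83 CPM in ventral libraries (median 2.79), with all 16 dorsal libraries above the ventral ones (log2 difference 1.98, SE 0.15, adjusted p = 5.01e-13).

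Sgpp2, a sphingosine-1-phosphate phosphatase, lay between 9.62 and 23.5 CPM in dorsal libraries (median 15.6) and between 0.491 and 4.72 CPM in ventral libraries (median 3.4). Gpx6, a glutathione peroxidase, lay between 4.81 and 12.6 CPM in dorsal libraries (median 8.51) and between 0.583 and 3.9 CPM in ventral libraries (median 1.15). Both separated the regions, with differences of 2.31 (SE 0.19) and 2.28 (SE 0.19). Clspn, a replication checkpoint gene, differed by 2.21 (medians 13.1 against 2.33 CPM), Klhl1, an actin-binding kelch protein, by 1.9 (medians 25.4 against 5.38 CPM), and Synpo2, an actin-binding protein, by 1.83 (medians 27.9 against 7.6 CPM), all without overlap. Gpr155 (1.91, medians 154 against 38.7 CPM), Sema7a, a membrane-anchored semaphorin (1.88, medians 28.8 against 6.78 CPM) and Prima1, the membrane anchor of acetylcholinesterase (1.82, medians 6.99 against 1.31 CPM), overlapped in part, with 15, 15 and 11 of 16 dorsal libraries above every ventral one.

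Ttr, the transthyretin gene of the choroid plexus, had the largest fitted difference of the genes named as higher in dorsal striatum (2.98, SE 0.50), but lay between 0.112 and 36.8 CPM in dorsal libraries (median 7.49) and between 0 and 3.47 CPM in ventral libraries (median 0.218). The dorsal libraries spread from near 0 upward and 11 of 16 exceeded every ventral one. Kl and Clic6, 2 other choroid plexus markers, were lower in dorsal striatum (-0.94 and -0.42), and Folr1, Otx2, Aqp1, Sostdc1, Foxj1, Ccdc153 and Tmem212 were below the filter on low values. The summed level of the 10 listed choroid and ependyma markers ran from 8.19 to 48.1 CPM in dorsal and from 12.6 to 23.2 CPM in ventral libraries with Ttr included. The other 9 summed to 7.95 to 16.7 CPM in dorsal and 12.02 to 19.99 CPM in ventral libraries, overlapping, with the lower median in dorsal striatum (11.5 against 15.6 CPM).

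**Figure D3:**
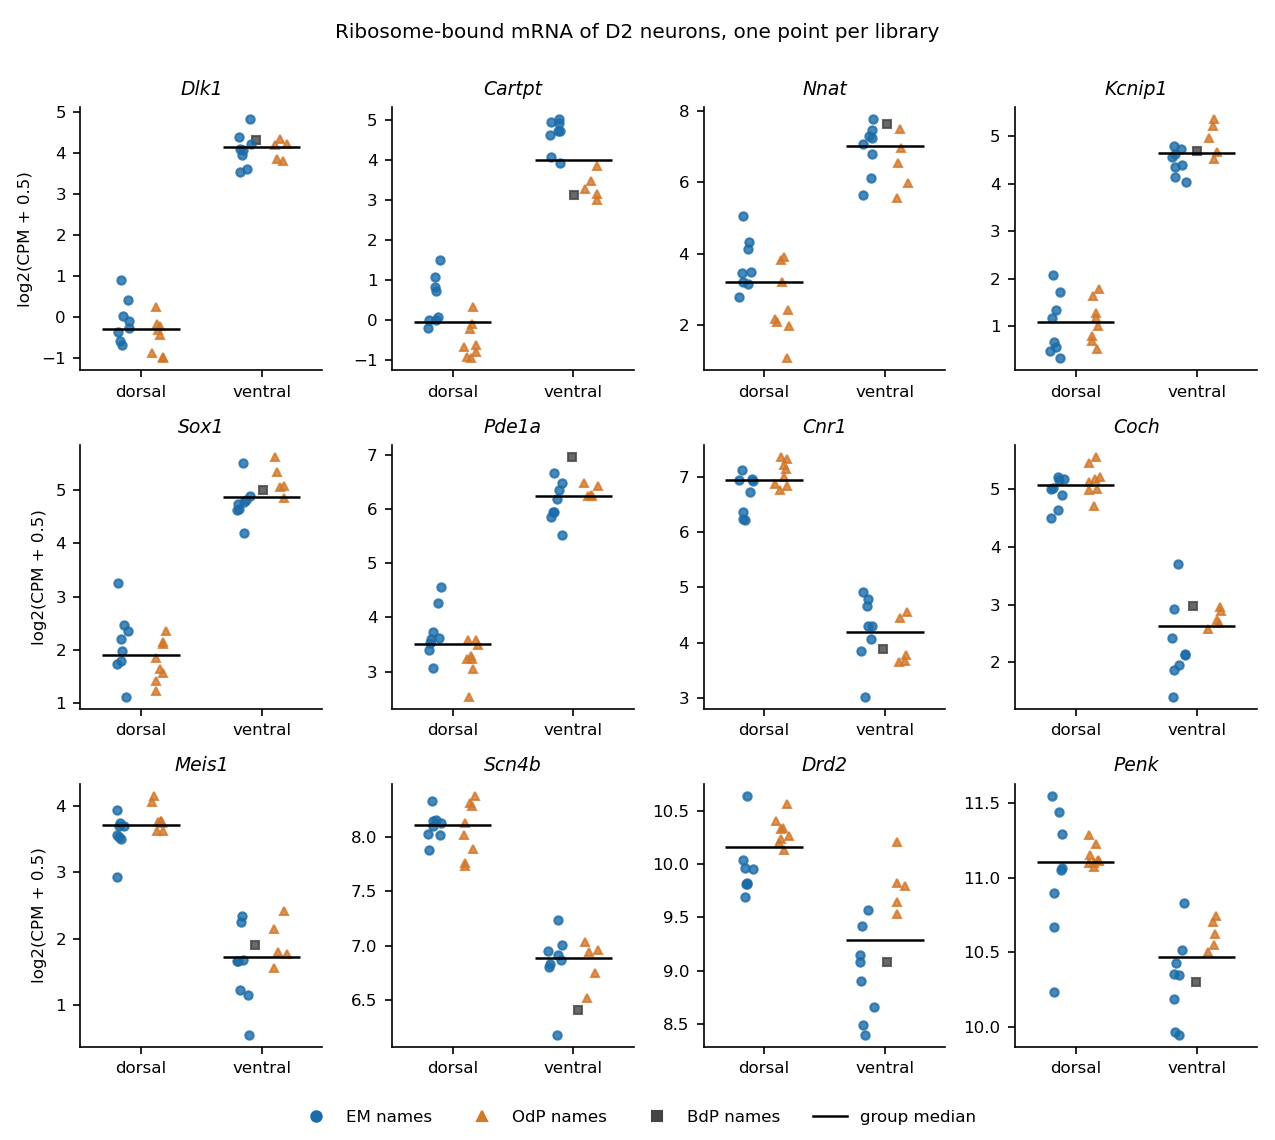
Level of 12 genes in each of the 30 D2 libraries, as log2(CPM + 0.5), by region; colour and shape give the name code and the line is the group median. The regions do not overlap for Dlk1, Cartpt, Nnat, Kcnip1, Sox1, Pde1a, Cnr1, Coch, Meis1 and Scn4b, and overlap for Drd2 and Penk.

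The genes tested that mark D2 neurons were higher in dorsal striatum, 7 of 7 with 0 lower (median 0.66, against -0.12 for all genes), with 5 called in both codes. Penk, the enkephalin precursor, lay between 1203 and 2996 CPM in dorsal libraries (median 2201) and between 985 and 1818 CPM in ventral libraries (median 1413), with 14 of 16 dorsal libraries above the ventral ones (log2 difference 0.66, SE 0.11, adjusted p = 2.03e-05). Adora2a, the adenosine receptor gene, lay between 52.7 and 376 CPM in dorsal libraries (median 245) and between 37 and 239 CPM in ventral libraries (median 111) and overlapped more (log2 difference 0.94, SE 0.26, adjusted p = 0.00527); in EM alone it missed the threshold (adjusted p = 0.135). The lowest dorsal values, 52.7 and 87.6 CPM in replicates 6 and 2, and the lowest ventral value, in replicate 6, came from the 3 EM libraries that stood apart on the third component, and without those 3 the difference over all other libraries was 1.05 (SE 0.20, adjusted p = 1.46e-04). Gpr6, a constitutively active Gs-coupled receptor, differed by 0.69, SE 0.11, adjusted p = 5.85e-06, Grik3, a kainate receptor subunit, by 0.63, Ptprm by 0.51 and Sp9, a transcription factor needed for D2 neurons, by 0.41. In the D1 identity list 0 of 8 were higher and 3 (37.5%) lower, beside 20.6% of all genes. Eya1 (-1.13), Pdyn (-0.98) and Isl1 (-0.74) were lower and Tac1, Ebf1, Chrm4, Slc35d3 and Drd1a not called. Of the D1 list 0 were called in both codes, and 2 were lower in edgeR. Beside these, the dopamine list had 2 of 6 called higher, Drd2 and its neighbour Ankk1 (0.44), and 0 lower.

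Of 33 genes known for their enrichment in striatum, most of them signalling genes, 21 were higher in dorsal D2 neurons, 1 was lower and 11 were not called (median 0.54). In both codes 19 of them were called, beside 11.1% of all genes. The list holds the transcription factors Foxp1, Bcl11b and Rarb, which are counted again among the transcription factors, and without them 19 of 30 were higher. Adcy5, the adenylyl cyclase of striatal neurons, lay between 186 and 303 CPM in dorsal libraries (median 241) and between 95.7 and 185 CPM in ventral libraries (median 135), without overlap (log2 difference 0.82, SE 0.09, adjusted p = 1.35e-08). Pde10a, the main striatal phosphodiesterase (0.78), Ppp1r1b, which encodes DARPP-32 (0.84), Rasd2, the GTPase Rhes (1.14), Lrrc10b (1.61), Ptpn5, the phosphatase STEP (0.64), and Cd4 (1.10) were also higher. Ppp1r2, an inhibitor of protein phosphatase 1, was the exception: it lay between 148 and 255 CPM in dorsal libraries (median 199) and between 264 and 514 CPM in ventral libraries (median 399), lower in every dorsal library (log2 difference -0.95, SE 0.10, adjusted p = 5.84e-10). Gnal and Gng7, G protein subunits that carry D1 and adenosine receptor signals, were not called (0.31 and 0.24).

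Regulators of G protein signalling split, with 4 higher and 4 lower of 14. Rgs4, which shortens Gi and Gq signals, lay between 397 and 814 CPM in dorsal libraries (median 565) and between 114 and 349 CPM in ventral libraries (median 211), without overlap (log2 difference 1.44, SE 0.13, adjusted p = 3.31e-11). Rgs17, a member of another subfamily, lay between 44.96 and 115 CPM in dorsal libraries (median 78.98) and between 79.5 and 322 CPM in ventral libraries (median 179), partly overlapping in the other direction (log2 difference -1.22, SE 0.16, adjusted p = 2.18e-07). Rgs16 (-1.14), Rgs12 (-0.71) and Rgs19 (-0.67) were lower and Rgs7bp (0.67), Rgs20 (0.55) and Rgs9 (0.54) higher. Among kinases of the diacylglycerol branch 4 were higher and 6 lower of 17 (4 and 3 with median-ratio scaling): Prkch (medians 20.6 against 44.7 CPM; -1.01) and Prkca (-0.55) fell with Dgkk, while Dgki (0.69) was higher. Prkcd, a kinase C isoform, was higher (1.31, adjusted p = 0.00683).

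Of 31 sodium, calcium and HCN channel genes, 15 were higher, 3 lower and 13 not called (median 0.40). Scn4b, the auxiliary subunit behind resurgent sodium current, lay between 211 and 332 CPM in dorsal libraries (median 276) and between 72.1 and 151 CPM in ventral libraries (median 118), without overlap (log2 difference 1.27, SE 0.09, adjusted p = 3.14e-13; EM 1.25, OdP 1.22). The T-type channel genes Cacna1h (1.03) and Cacna1i (1.02), the P/Q-type Cacna1a (0.76) and the sodium channels Scn1a (0.64), Scn8a (0.50) and Scn2a1 (0.47) were higher. Scn9a (-1.13) and Cacng5 (-1.10) were lower.

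Potassium channel genes numbered 16 higher and 12 lower of 47 (19 and 7 with median-ratio scaling). Kcnk1, a leak channel of the TWIK family, lay between 23.3 and 55.9 CPM in dorsal libraries (median 29.9) and between 9.59 and 22.99 CPM in ventral libraries (median 14.3), without overlap (log2 difference 1.07, SE 0.12, adjusted p = 7.83e-09). Kcnk2, the TREK-1 leak channel (1.03), Kcnj9, a GIRK subunit (1.03), Kcnt1 (0.85) and Kcnd2, an A-type channel (0.65), were higher. Its relative Kcnd3 went the other way, between 8.35 and 14.3 CPM in dorsal and between 14.4 and 24.1 CPM in ventral libraries, without overlap (log2 difference -0.80, SE 0.10, adjusted p = 5.06e-08). Kcnip4 (-0.86) was lower with Kcnip1, and Kcnip2 (0.22) and Kcnip3 (0.37) were slightly higher.

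Of 20 glutamate receptor genes 9 (45%) were higher and 3 (15%) lower, with the NMDA receptor subunits Grin1 (medians 103 against 49.4 CPM; 0.95), Grin2a (1.00) and Grin2b (0.49) and the metabotropic Grm8 (1.5) higher. The NMDA subunits Grin3a (medians 1.38 against 3.48 CPM; -1.21) and Grin2d (-0.92) were lower. Of 16 GABA and glycine receptor genes 2 (12.5%) were higher and 4 (25%) lower, shares near those of all genes (7.93% and 20.6%). Gabrg1, a gamma subunit that replaces the common gamma 2, lay between 0.0758 and 1.28 CPM in dorsal libraries (median 0.45) and between 1.82 and 9.35 CPM in ventral libraries (median 4.68), without overlap (log2 difference -2.37, SE 0.19, adjusted p = 3.63e-12). Gabra3 (-1.22) and Gabra5 (-0.91) were lower as well, and Gabrd, the delta subunit of tonic receptors, was higher (1.14, adjusted p = 0.00277).

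Of 7 acetylcholine receptor genes 5 were higher and 0 lower: Chrm1, the M1 receptor, lay between 31.9 and 72.1 CPM in dorsal libraries (median 55.7) and between 16.5 and 46.6 CPM in ventral libraries (median 30.97) (log2 difference 0.72, SE 0.14, adjusted p = 1.30e-04), and Chrm3 (1.18), Chrna7 (1.39), Chrna4 (0.46) and Chrnb2 (0.44) were higher too. In both codes 2 of them were called. Of 9 serotonin receptor genes 0 were higher, 5 lower and 4 not called (1 higher and 4 lower with median-ratio scaling). OdP libraries alone called 1 higher and 2 lower, and 2 were called in both codes. Htr2c lay between 16.96 and 30.1 CPM in dorsal libraries (median 23.8) and between 24.6 and 52.7 CPM in ventral libraries (median 41.9) (log2 difference -0.81, SE 0.11, adjusted p = 2.62e-07), and Htr2a (-0.68), Htr1a (-1.5), Htr7 (-0.81) and Htr5a (-0.47) were lower; Htr1a and Htr7 had ventral medians of 1.53 and 1.34 CPM. In the endocannabinoid system Dagla, which makes 2-arachidonoylglycerol, was higher with Cnr1 (medians 30.6 against 13.7 CPM; 1.03), Cnrip1, a CB1-interacting protein gene, was lower (-0.80), and 5 of 9 were not called. Napepld differed by -0.50 (adjusted p = 0.124 with median-ratio scaling). Of 7 adrenergic, histamine and adenosine receptor genes 3 were higher, Adora2a, Hrh3 (0.82) and Adrb1 (0.46), and 2 lower, Adra1a (-1.12) and Adra2c (-0.54; adjusted p = 0.121 with median-ratio scaling).

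All 6 opioid genes tested passed the threshold, 2 of them higher and 4 lower. Oprd1, the delta receptor for enkephalins, was higher with Penk (medians 27.6 against 16 CPM; log2 difference 0.79, SE 0.15, adjusted p = 9.64e-05). Oprm1, the mu receptor, was lower (medians 6.41 against 11.9 CPM; log2 difference -0.62, SE 0.15, adjusted p = 0.00227), as were Oprl1 (-0.72), Oprk1 (-0.57; adjusted p = 0.157 with median-ratio scaling) and Pdyn, the dynorphin precursor (medians 1.48 against 3.58 CPM; -0.98). Of 10 other neuropeptide and granin genes 2 were higher, Chgb (0.75) and Vgf (0.49), and 5 lower. Scg2, a granin of secretory vesicles, lay between 15.9 and 41.9 CPM in dorsal libraries (median 26.1) and between 39.1 and 69.3 CPM in ventral libraries (median 45.4) (log2 difference -0.95, SE 0.13, adjusted p = 2.29e-07), and Nts, the neurotensin precursor, differed by -0.92 (medians 2.01 against 5.1 CPM). Of 10 neuropeptide receptors 0 were higher and 3 lower, Trhr, Cckbr (-0.92) and Adcyap1r1, the PACAP receptor (medians 13.6 against 26.9 CPM; -0.85).

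Of 46 striatal genes listed as transcription factors, with Crym among them, 5 (10.9%) were higher and 20 (43.5%) lower in dorsal D2 neurons, beside 7.93% and 20.6% of all genes (median -0.24 against -0.12), and 5 and 13 with median-ratio scaling. Tshz2, a teashirt zinc finger factor, lay between 0.697 and 4.84 CPM in dorsal libraries (median 2.92) and between 7.3 and 23.7 CPM in ventral libraries (median 13.5), without overlap (log2 difference -2.06, SE 0.20, adjusted p = 2.10e-10). Without Crym 19 of 45 were lower. Crym, a thyroid hormone-binding protein used as a region marker in striatum, lay between 3.15 and 14.7 CPM in dorsal libraries (median 7.73) and between 17.04 and 59.9 CPM in ventral libraries (median 34.2), also without overlap (log2 difference -2.12, SE 0.20, adjusted p = 8.46e-11). The homeobox genes Dlx1 (medians 2.26 against 8.99 CPM; -1.66) and Dlx2 (-1.40), with Tshz1 (-0.86), Zfp503 (-0.76), Ikzf4 (-0.78) and Bcl11a (-0.53), were lower. Beside Meis1 and Sp9, Rxrg (0.82), Bcl11b, which encodes CTIP2 (0.45), and Foxp1 (0.39) were higher. Zeb2 was called lower in the pooled fit (-0.52) but differed by -0.91 in EM and 0.04 in OdP libraries.

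In the retinoic acid pathway 2 were higher and 3 lower of 12. Among the lower genes, Stra6, the cell-surface retinol importer, lay between 0 and 0.611 CPM in dorsal libraries (median 0.255) and between 2.17 and 7.98 CPM in ventral libraries (median 2.93). Rdh10, a retinol dehydrogenase, lay between 1.07 and 3.13 CPM in dorsal libraries (median 2.35) and between 3.28 and 12.3 CPM in ventral libraries (median 6.07). Neither overlapped between regions (-2.43, SE 0.17, and -1.31, SE 0.15). Rxrg, a nuclear receptor that partners the retinoic acid receptors, and Dhrs3, which reduces retinal (0.76), were higher, and the receptors Rara (-0.50), Rarb (-0.13) and Rarg (0.30) were not called. Of 19 other nuclear receptors 2 (10.5%) were higher, led by Rora (0.67), and 4 (21.1%) lower, led by Nr2f2 (-1.04), shares near those of all genes, and a split of 6 and 2 with median-ratio scaling. Of 18 activity-induced genes 5 were higher, among them Egr1 (medians 582 against 406 CPM; 0.56), Arc (0.76) and Egr2 (0.94), 2 lower (0 with median-ratio scaling), and Fos was not called (0.21).

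Wiring genes included clear cases in both directions. Of 43 axon guidance genes 10 were higher and 11 lower (12 and 8 with median-ratio scaling), 16 of them called in both codes. Ntn1, the netrin ligand, lay between 0 and 1.13 CPM in dorsal libraries (median 0.431) and between 2.58 and 7.81 CPM in ventral libraries (median 5.45), and Nrp2, a semaphorin co-receptor, lay between 0 and 2.17 CPM in dorsal libraries (median 0.32) and between 2.18 and 11.4 CPM in ventral libraries (median 7.08). Both separated the regions (-2.59, SE 0.17, and -2.58, SE 0.24), while Dcc, the netrin receptor, was higher in dorsal striatum (medians 14.8 against 8.47 CPM; 0.77). Slit2 was lower (medians 3.1 against 10.02 CPM; -1.48) and its receptor Robo2 and relative Slit3 higher (0.78 and 0.65). Ephb6 (1.64), Ephb1 (1.00), Sema3e (0.88) and its receptor Plxnd1 (1.04) were higher, and Epha5 (-1.06) and Unc5d (-1.09) lower.

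Cadherins numbered 5 higher and 6 lower of 19 (7 and 4 with median-ratio scaling), with Pcdh19 lower in every dorsal library (medians 4.84 against 17.1 CPM; -1.65) and Cdh9 (1.17), Pcdh7 (0.99) and Cdh8 (0.86) higher. Of 43 synaptic adhesion genes 13 were higher, among them Cntnap1 (1.22) and Slitrk2 (1.03), and 5 lower, with 9 called in both codes. The split was 19 and 5 with median-ratio scaling and 20 and 5 in edgeR. Cbln4, a secreted organiser of synapses, lay between 0 and 0.696 CPM in dorsal libraries (median 0.0912) and between 1.57 and 8.9 CPM in ventral libraries (median 4.41), without overlap (log2 difference -2.90, SE 0.19, adjusted p = 2.44e-14), and Slitrk1 was also lower (-1.12).

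Imprinted genes are expressed from 1 parental copy in at least some tissues, and the parental copy was not read here. Of 25 genes listed as imprinted, 2 (8%) were higher and 14 (56%) lower in dorsal D2 neurons, beside 7.93% and 20.6% of all genes (median -0.47 against -0.12). In both codes 12 (48%) were called, beside 11.1% of all genes; with median-ratio scaling the counts were 3 and 11. After Dlk1 and Nnat, Peg10, a gene derived from a retrotransposon, lay between 11.2 and 28.03 CPM in dorsal libraries (median 17.7) and between 44.01 and 175 CPM in ventral libraries (median 107), without overlap (log2 difference -2.42, SE 0.16, adjusted p = 1.51e-14). Gnas, which encodes the stimulatory G protein alpha subunit and other products of one complex locus, lay between 93.5 and 221 CPM in dorsal libraries (median 119) and between 223 and 379 CPM in ventral libraries (median 278), again without overlap (log2 difference -1.19, SE 0.11, adjusted p = 1.67e-10). Grb10, a brake on insulin signalling (medians 25.2 against 49.8 CPM; -0.99), and Ddc, which encodes aromatic amino acid decarboxylase (-1.89), also separated the regions; Meg3 (-0.84), Usp29 (-0.75), Nap1l5 (-0.79) and Peg3 (-0.47) were lower with overlap. Igf2r (0.48) and Ppp1r9a (0.44) were higher.

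Striosomes and matrix are the compartments of dorsal striatum, and their markers were read in both regions. Of 13 striosome markers 1 was higher, Kremen1 (0.94), and 7 were lower, among them Nnat, Kcnip1, Lypd1 (medians 19.8 against 65.8 CPM; -1.39), Tshz1 and Oprm1. Of 8 matrix markers 2 were higher, Rasgrp2 (0.90) and Epha4 (0.63), and 3 lower, with Gda, guanine deaminase, lower in every dorsal library (medians 42.8 against 133 CPM; -1.54). Of 37 genes of respiratory complex I, taken as a housekeeping reference, 0 were higher and 2 lower (median -0.08), and 1 and 0 with median-ratio scaling.

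**Figure D4:**
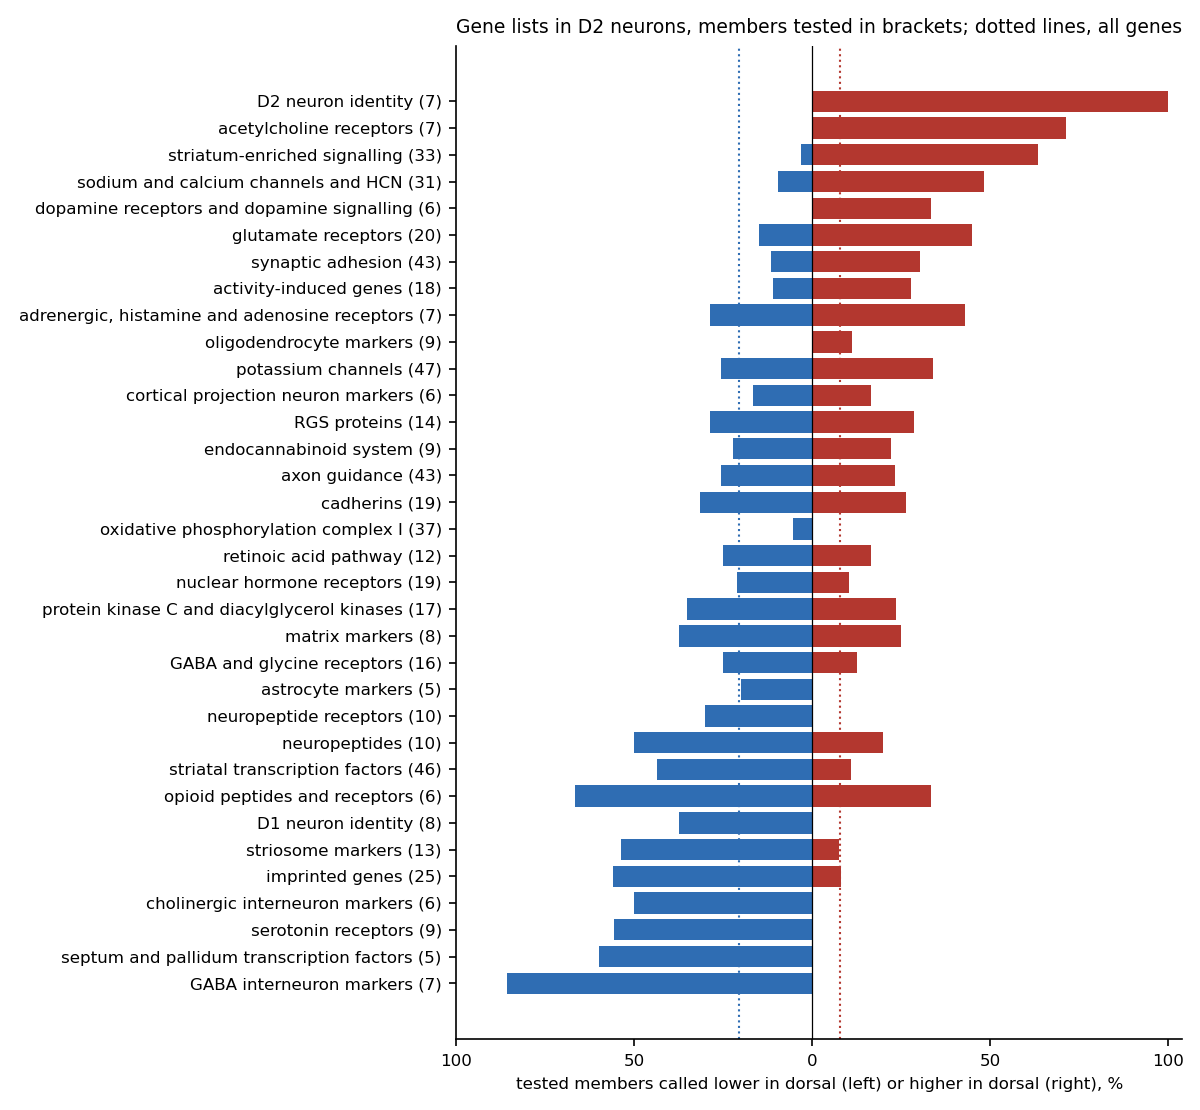
Share of the tested members of each gene list called lower (left, blue) or higher (right, red) in dorsal striatum, for the lists with at least 5 members tested; the dotted lines mark the shares over all 11187 genes, 20.6% lower and 7.93% higher. D2 identity, acetylcholine receptor and striatum-enriched signalling lists extend to the right, and GABA interneuron, serotonin receptor and imprinted gene lists to the left.

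Markers of other cells moved with region in part. The summed level of 15 GABA interneuron markers ran from 35.6 to 61.6 CPM in dorsal and from 55.4 to 97 CPM in ventral libraries, with little overlap. Of 7 tested members 0 were higher and 6 lower in dorsal striatum, and 1 and 4 with median-ratio scaling. Nos1, the neuronal nitric oxide synthase, lay between 3.04 and 7.62 CPM in dorsal libraries (median 4.14) and between 10.6 and 19.9 CPM in ventral libraries (median 14.97), without overlap (log2 difference -1.57, SE 0.12, adjusted p = 1.06e-12), and Lhx6 (-1.58), Sox6 (-1.56), Sst (-0.89) and Npy (-0.54) were lower. Pvalb was not called (0.74), Th, Vip, Calb2, Htr3a, Tac2, Pthlh, Nkx2-1 and Kit were below the filter, and no member was at 0 in every library. Cholinergic interneuron markers summed to 6.49 to 24.7 CPM in dorsal and 10.98 to 28.8 CPM in ventral libraries, with Chat, the acetylcholine-synthesising enzyme (medians 1.53 against 3.05 CPM; -0.70), Lhx8 (-1.14) and Isl1 lower. Of the 6 cholinergic markers tested 0 were higher, 3 lower and 3 not called (Slc5a7, Slc17a8 and Ecel1), and 1 was called in both codes. The part of these cells in the lower dorsal levels of Sox6, Nos1, Dlx1 and other genes was not tested.

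Of 5 septal and pallidal factors 3 were lower, of 3 thalamic and glutamatergic markers 2, Slc17a6 and Lhx2, and of 6 cortical markers 1, Cux2 (-1.87), with 1 higher. The septal and pallidal 3 were Zic1 and, counted above among interneuron markers, Lhx6 and Lhx8. The thalamic and glutamatergic count was 1 without ventral replicate 2, 1 without the 3 EM libraries far out on the third component and 1 with median-ratio scaling, and it was 3 in EM and 0 in OdP libraries alone. Cortical markers summed to 33.1 to 79.6 CPM in dorsal and 34 to 135 CPM in ventral libraries, the highest being ventral replicate 2. Glial and vascular lists overlapped: astrocyte sums were 33.04 to 79.2 against 33.4 to 114 CPM with 1 of 5 lower (0 with median-ratio scaling), and oligodendrocyte sums 94.8 to 267 against 87.1 to 242 CPM with 1 of 9 higher, Mbp (0.63). Oligodendrocyte precursor markers had 1 of 4 higher, and microglial and vascular markers 0 of 2 and 0 of 1 called. Without ventral replicate 2 the comparison called 872 genes higher and 2155 lower, and without the 3 EM libraries far out on the third component 1067 higher and 2737 lower.

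Whether the region differences differed between D2 and D1 neurons was tested with the interaction of region and receptor over the 60 striatal libraries. It called 313 of 11873 genes (2.64%), 84 with a more positive dorsal minus ventral difference in D2 than in D1 neurons and 229 with a more negative one. Name codes were unequal between the receptors: 13 of 30 D2 libraries but 1 of 30 D1 libraries were OdP, and the D1 libraries also held 5 BdP and 2 JAG. In EM libraries alone the interaction called 234 of 11971 genes (1.95%), 43 positive and 191 negative. Of the interactions given below, those of Sox1 (adjusted p = 0.121) and Cdr1 missed the threshold there. Over all genes, 3918 of 11332 were called between regions in D1 neurons, 1144 higher and 2774 lower in dorsal striatum. Of the 24 genes with the largest differences in D2 neurons, 23 were tested between regions in D1 neurons and all 23 were called there with the same sign. In the interaction 6 of the 24 were called. Cartpt differed by -4.07 in D2 and -3.99 in D1 neurons, Dlk1 by -4.38 and -3.85, and Cnr1 by 2.74 and 2.57, with no interaction called.

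Genes of D2 identity were among the largest positive interactions. Gpr6 was higher in dorsal D2 neurons (0.69) but lower in dorsal D1 neurons (-1.61), where it lay between 0 and 1.75 CPM in dorsal and between 2.29 and 5.32 CPM in ventral libraries (interaction 2.30, SE 0.20, adjusted p = 9.15e-13). Penk fell from a median of 112 to 53.2 CPM from ventral to dorsal in D1 libraries (-1.27), opposite to its rise in D2 libraries (interaction 1.93, adjusted p = 1.66e-11). Adora2a did the same (0.94 in D2, -1.15 in D1; interaction 2.09). Nts was lower in dorsal striatum in both, by -0.92 in D2 and -2.97 in D1 neurons (interaction 2.05, adjusted p = 2.36e-05). Drd2 itself lay between 2.16 and 12.2 CPM in dorsal and between 6.31 and 16.2 CPM in ventral D1 libraries, lower in dorsal (-0.53; interaction 1.40). The part of D2 mRNA in the D1 libraries in these D1 values was not tested.

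Fgf10, Kcnip1, Dgkk, Sox1 and Meis1 differed between regions in the same direction in both neuron types, by more in D2 neurons. Fgf10 differed by -3.22 in D2 and -1.61 in D1 neurons (interaction -1.61, adjusted p = 1.26e-05), Kcnip1 by -3.57 and -2.37 (-1.20), Dgkk by -3.80 and -2.53 (-1.27), Sox1 by -2.99 and -1.82 (-1.16) and Meis1 by 1.98 and 0.79 (1.19). Ncald, a neuronal calcium sensor gene, lay between 1.88 and 24.8 CPM in dorsal libraries (median 7.58) and between 10.9 and 53.8 CPM in ventral libraries (median 21.7) in D2 neurons (log2 difference -1.64, SE 0.27, adjusted p = 8.96e-06) and was not called between regions in D1 neurons (0.19; interaction -1.83, adjusted p = 4.55e-04). Fhl2, a LIM-domain gene, was lower in dorsal D2 and higher in dorsal D1 neurons (-1.16 and 0.66; interaction -1.82). Slitrk1 differed by -1.12 in D2 and 0.38 in D1 neurons (interaction -1.49, adjusted p = 1.82e-08). Cdr1, which overlaps an antisense circular RNA (strand use in counting is not given in the sources used here), spread from 213 to 3782 CPM in dorsal and from 224 to 5290.2 CPM in ventral D2 libraries, overlapping almost throughout. It differed by -1.09 in D2 (adjusted p = 0.0309, and 0.0652 with median-ratio scaling) and by 0.85 in D1 neurons (interaction -1.94, adjusted p = 0.016, and 0.0717 in EM libraries alone).

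**Figure D5:**
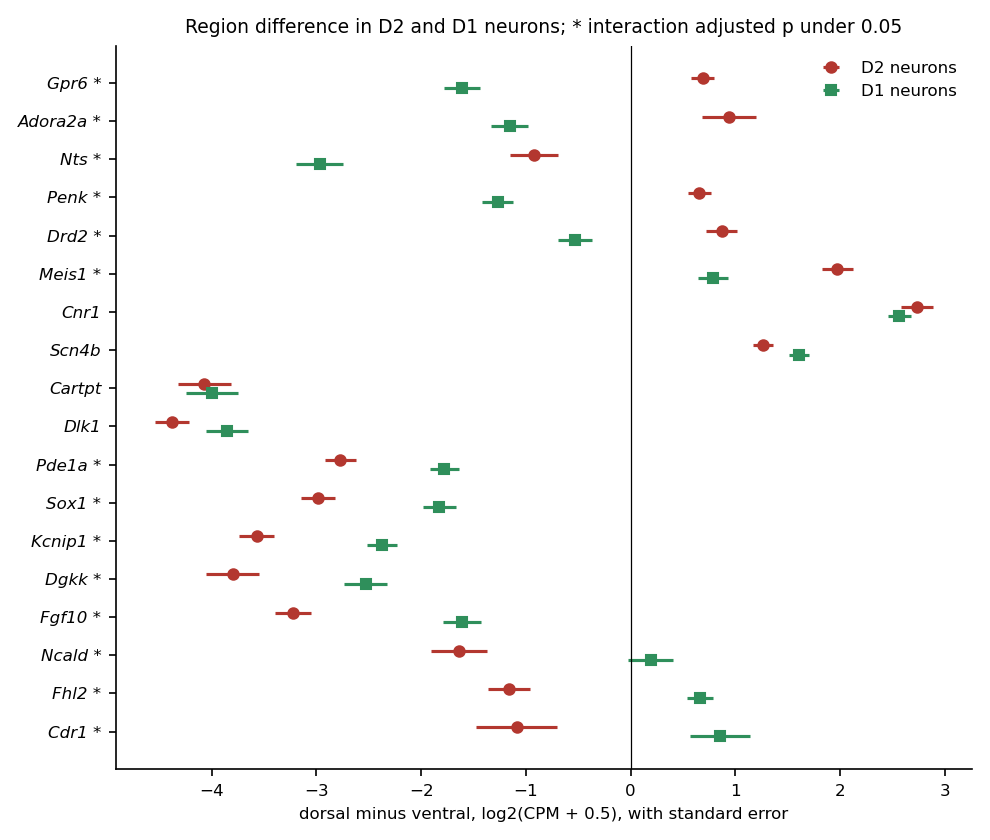
Dorsal minus ventral log2 difference with its standard error for 18 genes in D2 neurons (red circles) and D1 neurons (green squares); an asterisk marks an interaction adjusted p under 0.05. Gpr6, Adora2a, Penk and Drd2 lie right of 0 in D2 and left of 0 in D1 neurons, while Cnr1, Scn4b, Cartpt and Dlk1 lie on the same side in both.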

How the data were processed

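Values were the CPM per gene, reads scaled to library total, that the authors deposited for all 79 libraries; per the submitters' processing notes reads were handled with FastQC, Trim Galore 0.4.2, cutadapt 1.9.1 and HISAT2 on GRCm38, and the counter is not given in the sources used here. Low values were whole multiples of 1 read in every library, so reads were recovered (100% of values whole within 0.02 reads). In the D2 libraries 1 read was worth 0.0124 to 0.0466 CPM, and genes held 33.1% to 40.2% of the CPM total, the rest lying outside the table's 25899 genes.

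Groups were taken from the labels. Genes with at least 1 CPM in as many libraries as the smaller group were fitted as log2(CPM + 0.5) in limma 3.58.1 (R 4.3.3, two-sided, trended variance, no covariate), and p-values were adjusted by Benjamini and Hochberg over all genes tested. Differences are dorsal minus ventral on that scale, which understates those of low genes. EM and OdP libraries were also fitted apart. Alternatives covered scaling, pseudocount, filter, covariates, left-out libraries and edgeR 4.0.16 quasi-likelihood tests on the recovered reads, which called 2682 genes. The procedure was tested on simulated data.

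Genes named are the 12 largest differences in each direction among those called in all libraries, in EM and in OdP averaging 5 CPM or more in the higher region, the 5 largest receptor interactions in each direction, and members of 39 gene lists. Members and lists were chosen with earlier results of these data known. None of 211 pairs of libraries within groups looked like a repeat of one library (lowest chi-square over its degrees of freedom 8.47). RefSeq names matched 23028 of the symbols. Some list members are not reported here by name.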

Additional observations from a re-analysis of the deposited data

Results flagged for a closer look

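The dorsal minus ventral difference in D2 neurons differed from that in D1 neurons (interaction test in limma, adjusted p under 0.05) for 50 of 606 list members (8.25%), beside 2.64% of all 11873 genes. The members were chosen with earlier results of these data known and include D1 and D2 identity genes, so these shares do not test enrichment. The 34 genes below are those called among the genes with the largest region differences and the largest interactions, and the list members that were called between regions in D2 neurons and had an interaction of at least 1 on the log2 scale in size. All 34 had the same sign in EM libraries alone, and 28 were called there, while Sox1, Pde1a, Cdr1, Grik3, Eya1 and Cbln4 were not. The EM libraries are 38 of the 60 on which the genes were chosen, so this is not an independent check. Each interaction below is the D2 difference minus the D1 difference on the log2 scale.

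Of the genes with the largest region differences, the interaction was 1.19 for Meis1, -1.27 for Dgkk, -1.20 for Kcnip1, -1.61 for Fgf10, -1.16 for Sox1 and -0.99 for Pde1a. D2 identity genes had positive interactions: 2.30 for Gpr6, 2.09 for Adora2a, 1.93 for Penk, 1.40 for Drd2, 1.21 for Ptprm, 1.13 for Grik3 and 1.10 for Sp9. Eya1, a D1 identity gene, had -1.46.

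Among peptides and receptors the values were 2.05 for Nts, -1.63 for Sst, -1.23 for Npy, -1.01 for Htr1a and -1.02 for Adra2c. Among transcription factors they were -1.16 for Zeb2, -1.10 for Nr2f2, -1.24 for Sox6 and -1.02 for Cux2. Among channels and synaptic genes they were -1.32 for Kcnc2, -1.08 for Kcnj3, -1.49 for Slitrk1, -1.38 for Cbln4 and -1.33 for Slc17a6.

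The remaining genes had the largest interactions outside the lists: 2.44 for Arhgap36 (0.89 and not called in edgeR, adjusted p = 0.623), -1.94 for Cdr1, -1.83 for Ncald, -1.82 for Fhl2, -1.80 for Nrn1 and -1.79 for C130074G19Rik. The regional difference of Nrn1 was not called in D2 neurons (-0.63, adjusted p = 0.139), and Arhgap36 and C130074G19Rik were not tested there because of their low levels.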

How the results depend on the processing

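The 24 genes with the largest differences were chosen as called in EM and in OdP libraries alone, so those fits say nothing of their stability. In the other 19 alternatives they were called with the same sign wherever tested; 6 were not tested with a filter at 5 CPM, and Ttr was also not tested without the 3 libraries far out on the third component or in the second reading of the block. The number called was 3189, 2074 in the OdP libraries alone and 4328 with array weights. Genes of at least 2-fold difference fell from 464 to 260 with a filter at 5 CPM, chosen after seeing the data, which tests fewer genes. In OdP libraries alone, leaving out each library in turn gave 1657 to 2409 calls beside 2074. Of the 10 named receptor interactions 8 kept their call wherever tested in the 5 alternatives; Cdr1 was -2.33 in EM libraries alone (adjusted p = 0.0717) and Arhgap36 was 0.89 in edgeR (adjusted p = 0.623), and the cause was not tested.

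The labels give no replicate numbers shared between regions. Consecutive library names, which may or may not mark shared mice, were tried as a replicate block: 3438 genes were called beside 2667 without the block, or 3986 beside 3144 where OdP names were paired the other way. Of 13 ventral libraries, 3, or 4 in the other reading, correlated best with their own partner among the 8 dorsal libraries of their code. The fitted correlation within blocks was 0.25 in each reading. Without dorsal replicates 2 and 6 and ventral replicate 6, 3804 genes were called, and without dorsal replicate 3, the shallowest, 2965.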
